A study of Mus musculus with 6 samples.

Results

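Cytosolic ribosomal proteins are the proteins that, together with ribosomal RNA, build the small (40S) and large (60S) subunits of the ribosomes that translate nuclear-encoded mRNAs. To describe their mRNAs in tumor-associated macrophages (TAMs), gene rows were taken whose symbol is Rpl or Rps followed by a number, with an optional a, x or l and a further number, plus Rplp0, Rplp1, Rplp2 and Rpsa, leaving out pseudogene symbols. This rule uses symbols and no measured value. It took 84 of the 22377 gene rows, of which 32 were assigned by symbol to the 40S and 52 to the 60S subunit. Of these, 77 are core proteins and 7 are rows named as like another protein or known as paralogs (Rpl3l, Rpl6l, Rpl7l1, Rpl22l1, Rpl32l, Rpl39l and Rps27l). For Rpl6l and Rpl32l no protein-coding transcript was found in the GENCODE annotation, so whether these rows encode ribosomal proteins is uncertain. All 84 passed edgeR's filter on low counts, as did 13884 genes in all.

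The series holds 6 libraries, 3 labelled wt and 3 labelled ko and knockdown. In the study, TAMs were sorted as CD45+ CD11b+ F4/80+ cells from LLC (Lewis lung carcinoma) tumors grown under the skin of Npm1+/+ and Npm1+/- mice, male and female, aged 6 to 8 weeks at implantation. The implanted LLC cells do not carry the allele of the host. GEO's labels differ from this: they name tumor tissue as the source, a TRIzol extraction and small RNA libraries, and give no genotype, age or tumor line. The groups are therefore called wt and ko after the labels. Beyond the paper's mention of individual mice in its heatmap, nothing says which libraries share a tumor, sex or day.

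Npm1 encodes nucleophosmin, a nucleolar protein that takes part in ribosome assembly and export. Ribosomal protein mRNAs are among the most abundant in most cells. Many begin with a run of C and T bases at the cap, the 5' terminal oligopyrimidine (TOP) element, through which mTOR signalling controls their translation. Proteins made in excess of assembly are degraded, and some, such as those of the 5S particle, have roles outside the ribosome.

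Before the members, the targeted gene was checked. Npm1 stood at 142, 380.0 and 381 CPM (counts divided by library sizes that were first multiplied by TMM factors, which correct for differences in library composition) in the wt libraries and at 441, 498 and 343 CPM in the ko libraries. The groups overlapped, and the log2 fold change, ko minus wt, was 0.51 with an SE of 0.36 (edgeR, adjusted p = 0.436). The ko libraries thus showed no lower Npm1 mRNA, and every direction given here is a direction between the labels. The wt replicate 1 library had the lowest Npm1 level of the 6, and without it the log2 fold change of Npm1 was 0.16 (edgeR, adjusted p = 0.684). For results that moved most when this library was left out, the value without it is given beside them.

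Total counts ranged from 36550775 to 38147320 per library. The macrophage markers were all present, with a summed level of 15611 to 21620 CPM in the wt and 9191 to 15558 CPM in the ko libraries, and 12 of 12 had a lower level in ko (median log2 fold change -0.55). The summed levels of T cell markers were 35.2 to 139 CPM in wt and 112 to 329 CPM in ko, and 9 of 9 had a higher level in ko. NK cell markers summed to 62.1 to 113 CPM in wt and 95.7 to 230 CPM in ko, with 8 of 8 higher. In the fibroblast list 11 of 12 were higher in ko and 1 was lower, with a median log2 fold change of 1.08. Its sum was 4508 to 5790 CPM in wt and 3173 to 4751 CPM in ko, so median and sum point in opposite directions. A sum mostly follows the genes with the most counts, whereas the median weighs each gene alike. Neutrophil markers summed to 1206 to 1516 CPM in wt and 572 to 1196 CPM in ko, and epithelial markers to 36.1 to 138 CPM in wt and 129 to 192 CPM in ko. The sums for B cells (8.73 to 49.7 CPM in wt, 17.4 to 71.3 CPM in ko), dendritic cells (217 to 372 and 247 to 343 CPM) and endothelial cells (32.9 to 40.5 and 30.4 to 34.1 CPM) overlapped. Those of the T cell, NK cell, fibroblast and epithelial lists overlapped as well, and only the macrophage and neutrophil sums were apart. In bulk RNA a smaller number of cells of a type and less RNA per cell cannot be told apart, and the part of any of these lists in the results on ribosomal proteins was not tested.

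The level of the ribosomal protein mRNAs per length was high in all libraries. In FPKM (counts scaled to gene length and to the library total), the median over the 84 members was 686, and over the 77 core members 771. By mean FPKM, 74 of the 77 core members were among the first 500 gene rows and all 77 among the first 1000, with ranks from 23 to 767. Core members differed by up to 19.6-fold among themselves. Their order was alike between libraries, with Spearman's rho from 0.960 to 0.997 for each pair of libraries across these 77 genes, which are not independent replicates.

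The highest levels per length were those of Rps29, Rplp1 and Rpl10. Rps29, a small protein of the 40S head, stood at 1445, 1613 and 1459 FPKM in wt and at 1870.3, 1943 and 1670.4 FPKM in ko. Rplp1, one of the acidic proteins of the stalk that recruits elongation factors, stood at 1405, 1457 and 1402 FPKM in wt and at 1830.2, 1995 and 1542 FPKM in ko. In both genes each ko library was above each wt library on this scale, which is divided by the plain total of the library and is not TMM-scaled. The same held on it for 59.5% of the members and 18.6% of all genes tested. In TMM-scaled CPM the groups of Rps29 overlapped, at 499, 557 and 478 in wt and 573, 545 and 555 in ko. Rpl10, a protein added late to the 60S subunit, stood at 1692, 1468 and 1519 FPKM in wt and at 1632, 1563 and 1583 FPKM in ko, with the groups overlapping. The core members with the lowest level were Rpl21 at a mean of 84.9 FPKM, Rps15a at 98.9 FPKM and Rpl22 at 119 FPKM. Rps15a has the longest annotated length of the members, at 5136 bases, by which its FPKM is divided, and stood at 477 to 534 CPM.

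The paralogs were spread over a far wider range, with a median of 19.4 FPKM. Rpl22l1 reached a mean of 178 FPKM and thus exceeded Rpl22 per annotated length, although Rpl22 had more counts. Rpl6l stood at 51.0, Rpl7l1 at 20.9 and Rps27l at 19.4 FPKM. These values are divided by annotated lengths of 945, 2606 and 2748 bases. In CPM the same 3 rows were alike, at 41.9 to 56.8, 47.5 to 61.2 and 47.5 to 56.7. Rpl32l, Rpl3l (whose protein is known from heart and skeletal muscle, where it replaces Rpl3) and Rpl39l (known from testis) stood at 1.36, 0.697 and 0.574 FPKM. Rpl3l had 30 to 81 counts and Rpl39l 10 to 37 counts in a library, so these levels are low but above the 3 counts that a count of 0 allows, a limit that covers counting error only. Rpl10l and Rps4l, which were also looked for, were not analysed here.

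**Figure D1:**
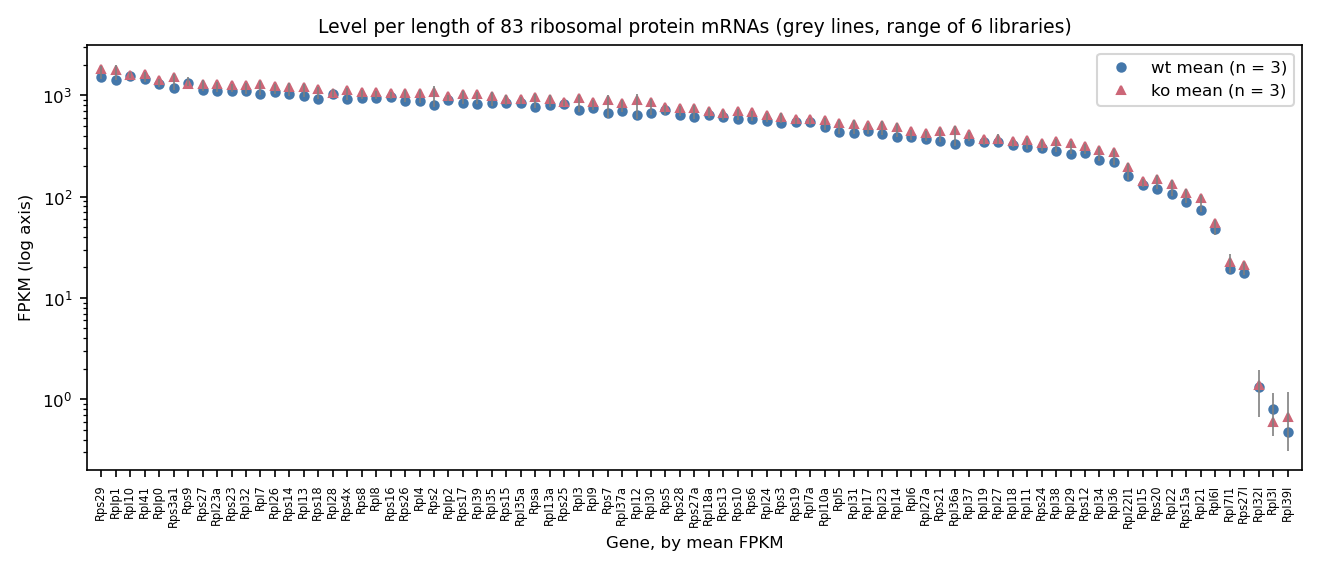
Level per length of 83 ribosomal protein mRNAs in FPKM on a log axis, ordered by mean, with the wt mean (circles), the ko mean (triangles) and the range over the 6 libraries (grey lines). The 76 core genes drawn lie between 84.9 and 1667 FPKM, and Rpl32l, Rpl3l and Rpl39l lie near 1.

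The ribosomal protein mRNAs held more of the counts in each ko library than in any wt library. They held 4.69%, 4.46% and 4.46% of all counts in wt replicates 1, 2 and 3 and 5.46%, 5.60% and 4.85% in ko replicates 1, 2 and 3. The means were 4.53% ± 0.136 in wt and 5.30% ± 0.398 in ko (SD, n = 3 each), a difference of 0.769 percentage points and a ratio of 1.17. The 95% Wilson intervals of the single shares, which cover counting error only, ran from 4.684 to 4.698% in wt replicate 1 and from 4.844 to 4.858% in ko replicate 3, the closest pair, so that the spread between libraries was far wider than counting error. The groups did not overlap, although ko replicate 3 lay nearer to wt replicate 1 than to the other ko libraries. In summed FPKM the share was 12.3% ± 0.269 in wt and 14.3% ± 1.12 in ko (SD, n = 3).

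This difference depended on the library size used. TMM factors were 0.933, 0.933 and 0.983 in the wt and 1.05, 1.15 and 0.969 in the ko libraries. Relative to the TMM-scaled library, the members held 5.03%, 4.77% and 4.53% in wt and 5.19%, 4.89% and 5.00% in ko, so that the groups overlapped. The means were then 4.78% ± 0.249 and 5.03% ± 0.155 (SD, n = 3), and the difference was 0.250 percentage points. In plain totals the median log2 difference over all genes tested was 0.177, and it was 0.155 higher than with TMM. A change of library size moves all genes, members included, by about the same amount, so this shift follows from the scaling. The 50 non-member genes with the most counts held 20.4% ± 0.953 of the counts in wt and 18.6% ± 1.86 in ko (SD, n = 3), and 30 of the 50 had a smaller share in ko. Thbs1, which encodes the matrix protein thrombospondin 1, was the largest of them, with 3.11% of the counts in wt and 2.31% in ko. Lyz2, the lysozyme gene of macrophages and other myeloid cells, held 1.07% in wt and 0.792% in ko.

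The balance between the subunits differed between the groups by less than the spread of the libraries. The ratio of 40S to 60S counts was 0.735, 0.743 and 0.744 in wt and 0.740, 0.745 and 0.738 in ko. The means were 0.741 ± 0.005 in wt and 0.741 ± 0.0034 in ko (SD, n = 3). Both subunits thus had a larger share of plain counts in ko, at 1.93% against 2.26% for the 40S and 2.60% against 3.05% for the 60S proteins.

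**Figure D2:**
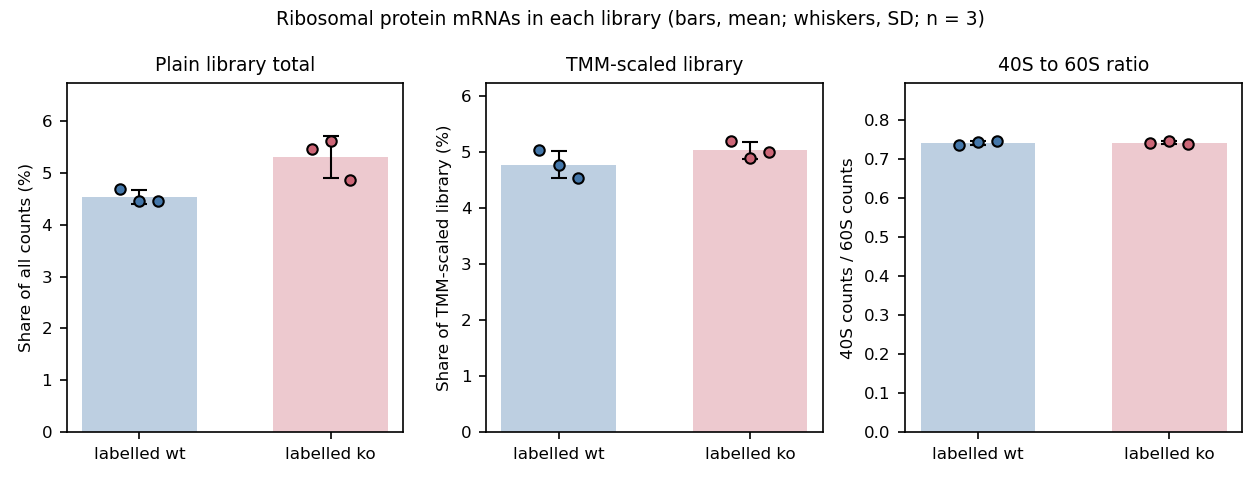
Ribosomal protein mRNAs in the 3 wt and 3 ko libraries (points; bars, mean; whiskers, SD), as percent of all counts, as percent of the TMM-scaled library, and as the ratio of 40S to 60S counts. The groups are apart on plain totals (4.46 to 4.69% against 4.85 to 5.60%), overlap after TMM scaling, and share a ratio of 0.741.

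To ask which single members differed between the labels, the counts were compared with edgeR's quasi-likelihood test, adjusted over all 13884 genes tested. No member passed an adjusted p of 0.05, and neither did any gene (0% of all genes tested), with the smallest adjusted p of a member at 0.328. At an unadjusted p under 0.05, 2 members (2.38%) were higher in ko, against 6.9% of all genes, and 0 members were lower, against 8.31%. DESeq2 called 0 of 84 members and 0.263% of all genes. In DESeq2 on wt replicates 2 and 3 and ko replicates 1 and 2, the libraries shown in the study's heatmap of single genes, 0 of 82 members were called, against 4.42% of all genes called higher and 6.21% called lower. In each of these counts other than the adjusted edgeR test, which called no gene, the share of the members was below that of all genes.

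The differences were small and leaned to one side. The median log2 fold change of the 84 members was 0.078, against 0.022 over all genes tested, and it ranged from -0.54 to 0.36. Of the 84, 64 were above 0 and 20 below, and 43 lay within 0.1 of 0 in either direction. Without wt replicate 3, which had the lowest level in 51 of the 77 core members, the median was 0.027, against 0.018 over all genes, so the distance between the members and all genes fell from 0.056 to 0.0091. With plain totals, 82 of 84 were above 0 and the median was 0.23, against 0.17 over all genes in the same fit, again a distance of 0.056. At an unadjusted p under 0.05, that fit had 34 members (40.5%) higher in ko, against 12.4% of all genes, and again no member passed the adjusted threshold.

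The single libraries show the same lean. In TMM-scaled CPM, each ko library was above each wt library in 29 members (34.5%), against 13.3% of all genes, and each was below in 0 members, against 12.6% of all genes. On plain totals these were 50 members (59.5%), against 18.6% of all genes, and 0, against 6.88%. Each of the 29 has an exact two-sided permutation p of 0.1, the smallest that 3 against 3 libraries allow. That value follows from the separation by which they were counted and adds nothing to it. Members share their libraries and are not independent replicates. Without wt replicate 1, 42 members (50%) were apart with ko higher, against 16.6% of all genes, and 0 with ko lower, against 14.9%. Without wt replicate 3, 23 members (27.4%) were apart with ko higher, against 21.9% of all genes. In that comparison 3 members (3.57%) were apart with ko lower, against 19.9%.

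**Figure D3:**
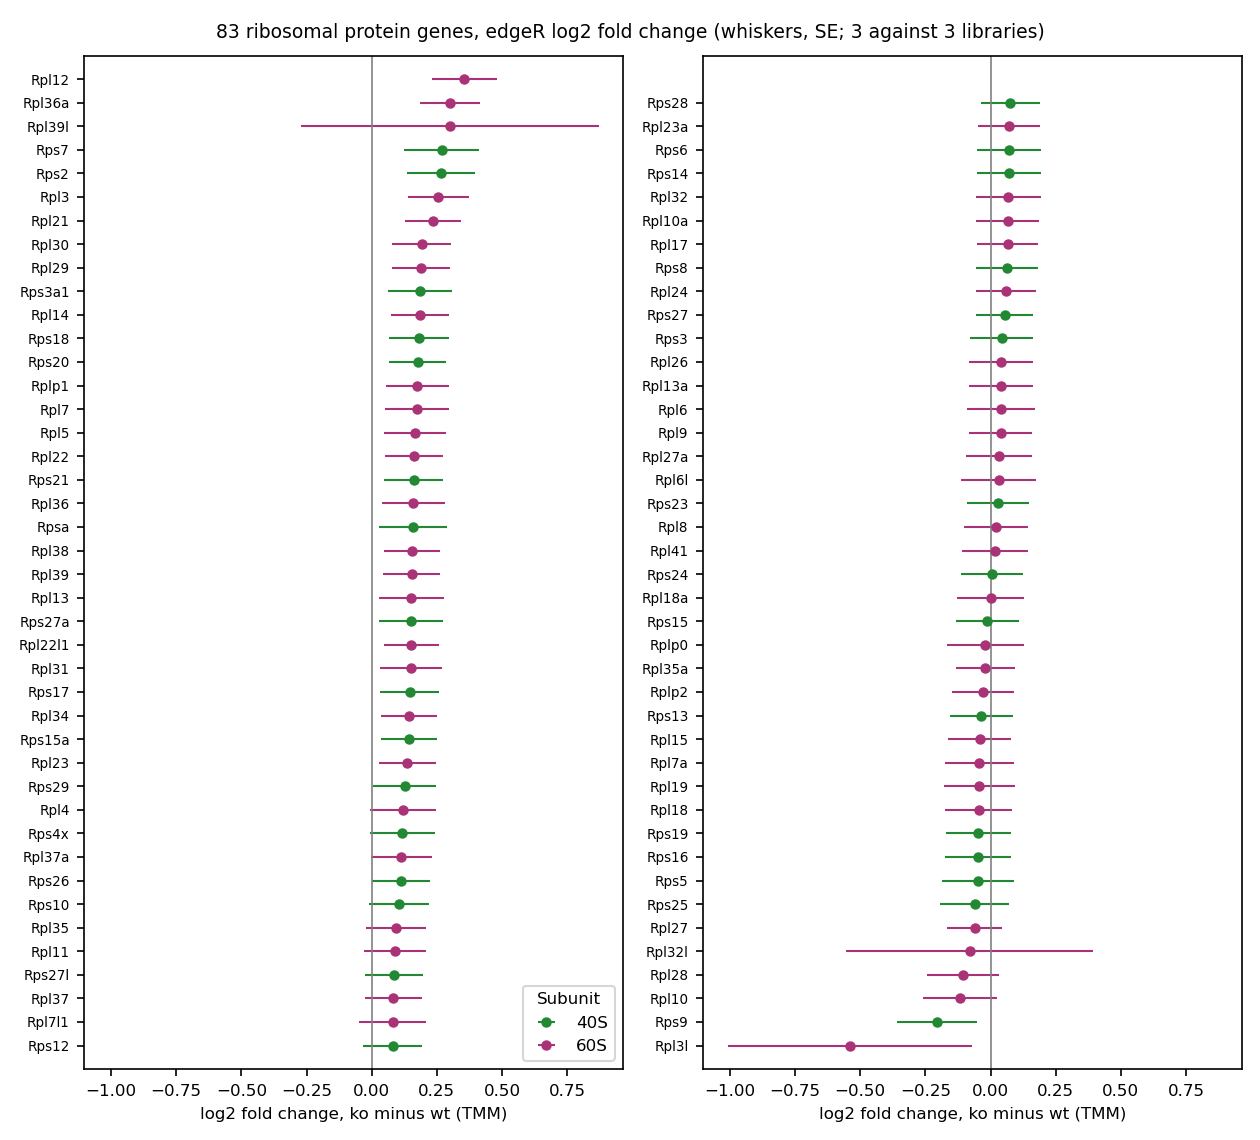
The log2 fold change, ko minus wt, of 83 members after TMM scaling (points; whiskers, SE from edgeR; 3 against 3 libraries), sorted and colored by subunit. Values run from 0.36 for Rpl12 to -0.20 for Rps9 among core genes, 40S and 60S proteins are mixed along the order, and the widest errors belong to Rpl39l, Rpl32l and Rpl3l.

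The subunits had like medians. The 40S members had a median log2 fold change of 0.078, with 24 of 32 above 0, and the 60S members 0.075, with 40 of 52 above 0. Of the 40S members 10 (31.3%) were apart in TMM-scaled CPM with ko higher, and of the 60S members 19 (36.5%), against the 13.3% of all genes given above. Of the structural groups, 9 proteins at the exit of the nascent chain had a median of 0.093, 14 proteins of the 40S head 0.078 and the 2 proteins of the 5S particle 0.13. The 3 acidic stalk proteins had a median of -0.02, with 2 of 3 below 0, and of 0.073 without wt replicate 1. The 18 members mutated in Diamond-Blackfan anemia, an inherited failure of red cell production, had a median of 0.083, with 13 above 0 and 0 passing the test. The 4 X-linked members had a median of 0.14.

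Among 60S proteins, Rpl12 had the largest difference of all core members. Rpl12 forms the base of the stalk where elongation factors dock. It stood at 401, 447 and 432 CPM in wt and at 569.6, 574 and 494 CPM in ko. Every ko library was above every wt library, and the log2 fold change was 0.36 with an SE of 0.12 (edgeR, unadjusted p = 0.0224, adjusted p = 0.328, exact permutation p = 0.1). Leaving out wt replicate 1 gave 0.31, and leaving out ko replicate 3 gave 0.42.

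The other stalk proteins, whose difference from Rpl12 was not tested, had smaller values or values below 0. Rplp0, which anchors the stalk and is often used as a reference gene, stood at 2089, 1795 and 1664 CPM in wt and at 1881, 1712 and 1877 CPM in ko, with a log2 fold change of -0.02. The highest and the lowest of its levels were both in wt, and its direction reversed with the scaling, at 0.13 on plain totals, and without wt replicate 1, at 0.073. Rplp1 stood at 705, 730.4 and 667 CPM in wt and at 815, 814 and 744 CPM in ko, with a log2 fold change of 0.18 (SE 0.12, adjusted p = 0.424) and no overlap of the groups. Rplp2, its dimer partner, stood at 462, 438 and 405 CPM in wt and at 435, 399 and 443 CPM in ko, with a log2 fold change of -0.03 that was 0.12 on plain totals. The difference between Rplp1 and Rplp2 was not tested itself.

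Rpl36a and Rpl21 came next in order of p. Rpl36a, an X-linked 60S protein, stood at 166, 174 and 168 CPM in wt and at 225, 213 and 189 CPM in ko, a log2 fold change of 0.30 with an SE of 0.12 (edgeR, unadjusted p = 0.0326, adjusted p = 0.328, exact permutation p = 0.1). Rpl21 stood at 157, 166 and 158 CPM in wt and at 199, 186 and 180.5 CPM in ko, a log2 fold change of 0.23 (SE 0.11, adjusted p = 0.331). In both genes the wt libraries lay close together and every ko library was above them.

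Rpl3, a large core protein near the peptidyl transferase center, stood at 949.7, 975 and 980.1 CPM in wt and at 1177, 1130.4 and 1161 CPM in ko. Its 2 groups were narrow and well apart, and the log2 fold change was 0.26 with an SE of 0.12 (edgeR, adjusted p = 0.331). Its muscle paralog Rpl3l stood at 2.28, 0.845 and 1.50 CPM in wt and at 0.915, 0.787 and 1.48 CPM in ko, and its log2 fold change of -0.54 had an SE of 0.47. Without wt replicate 1, its highest library, the value was -0.15.

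Rpl5 and Rpl11 bind 5S ribosomal RNA and, outside the ribosome, bind and inhibit Mdm2, the ubiquitin ligase of p53. Rpl5 stood at 940.4, 890.3 and 922 CPM in wt and at 1077, 1009 and 1003 CPM in ko, a log2 fold change of 0.17 (SE 0.12, adjusted p = 0.439), with no overlap. Rpl11 stood at 529.8, 522 and 479 CPM in wt and at 572, 513 and 544 CPM in ko, a log2 fold change of 0.090, with the groups overlapping. Of the mRNAs of this pathway, that of Mdm2 stood at 146, 227 and 236 CPM in wt and at 274, 360.2 and 249 CPM in ko. Its log2 fold change was 0.54 (SE 0.22, edgeR adjusted p = 0.328), and 0.34 without wt replicate 1. Trp53, which encodes p53, had a log2 fold change of 0.047, and Cdkn1a, a p53 target, had -0.35 (adjusted p = 0.416).

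Rpl22 is not required for translation in most cells, and its protein is known to repress its paralog Rpl22l1. Rpl22 stood at 249, 259.6 and 229 CPM in wt and at 281, 280.2 and 265 CPM in ko. Rpl22l1 stood at 76.1, 82.4 and 86.1 CPM in wt and at 91.3, 90.6 and 89.8 CPM in ko. Both were above the wt libraries in every ko library, with log2 fold changes of 0.16 (SE 0.11) and 0.15 (SE 0.10) and adjusted p-values of 0.422 and 0.425.

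Rpl13a, known for a role in silencing inflammatory mRNAs in macrophages after its release from the ribosome, stood at 926, 835 and 813 CPM in wt and at 877, 900.2 and 871 CPM in ko. Its log2 fold change was 0.041 with an SE of 0.12. Rpl7l1, a paralog of Rpl7 that acts in ribosome assembly, had a log2 fold change of 0.080 (SE 0.13).

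Among core 60S proteins, the smallest p-values below 0 were those of Rpl10, Rpl28 and Rpl27. Rpl10 stood at 1368, 1186 and 1165 CPM in wt and at 1171, 1028 and 1232 CPM in ko, a log2 fold change of -0.12 with an SE of 0.14. Rpl28 stood at 609.6, 516 and 479 CPM in wt and at 507, 460.5 and 526 CPM in ko, at -0.10 (SE 0.14). In both genes wt replicate 1 was the highest library and ko replicate 2 the lowest, and the groups overlapped. Without wt replicate 1 the values were -0.04 for Rpl10 and -0.0038 for Rpl28. Rpl27 had a log2 fold change of -0.06 (SE 0.11). All 3 were above 0 on plain totals, at 0.030, 0.045 and 0.094.

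Among 40S proteins, Rps2 and Rps7 had the largest differences. Rps2, a protein of the mRNA entry site, stood at 826, 905 and 815 CPM in wt and at 1067, 1065 and 929 CPM in ko, a log2 fold change of 0.27 with an SE of 0.13 (edgeR, adjusted p = 0.340). Rps7, which is needed to process the precursor of the 18S RNA, stood at 609, 762 and 644 CPM in wt and at 853, 844 and 731 CPM in ko, also 0.27 (SE 0.14, adjusted p = 0.356). Rps2 was higher in every ko library, whereas in Rps7 wt replicate 2 lay above ko replicate 3.

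Rpsa, which is also known as the 67 kDa laminin receptor, stood at 1632, 1489 and 1415 CPM in wt and at 1736, 1673 and 1652 CPM in ko, a log2 fold change of 0.16 (SE 0.13, adjusted p = 0.494) without overlap. Rps27a, made as a fusion with ubiquitin, stood at 509.5, 546 and 510.4 CPM in wt and at 632, 536 and 572 CPM in ko, at 0.15 (SE 0.12). Rps27l, a paralog of Rps27 and a p53 target, stood at 47.5 to 54.9 CPM in wt and 53.6 to 56.7 CPM in ko, at 0.086.

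Several well-known 40S proteins were close to 0. Rps6, the substrate of the S6 kinases, stood at 919, 837 and 821 CPM in wt and at 935, 858 and 913 CPM in ko, with a log2 fold change of 0.070 (SE 0.12). Rps3, which also acts in DNA repair and NF-kB signalling, had 0.043 (SE 0.12), and Rps19, the gene most often mutated in Diamond-Blackfan anemia, had -0.05 (SE 0.12).

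Rps9 was the 40S member farthest below 0. Rps9, which binds early to the 18S RNA, stood at 1322, 1079.7 and 1046 CPM in wt and at 1035, 888 and 1069 CPM in ko, a log2 fold change of -0.20 with an SE of 0.15 (edgeR, adjusted p = 0.453). The groups overlapped, with wt replicate 1 the highest library. Without that library the log2 fold change of Rps9 was -0.10, so the value rests in large part on it.

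To compare the members with one another, the summed counts of all 84 were used as the library size, which takes out the level of the whole pool. On this scale 42 members were above 0 and 42 below, 0 passed the adjusted threshold and 0 had an unadjusted p under 0.05 in edgeR. In 15 members (17.9%) each ko library was above each wt library, against 7.61% of all genes, and in 15 (17.9%) each was below, against 20.9% of all genes. The median log2 difference over all genes on this scale was -0.053 and over the members 0.0024, since the scale sets their sum equal in all libraries.

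The members apart on the higher side were Rpl12, Rpl36a, Rpl3, Rpl21, Rpl14, Rpl29, Rpl7, Rpl38, Rpl39, Rps3a1, Rps18, Rps20, Rps4x, Rpsa and Rps12. Those on the lower side included Rps9, Rps15, Rps16, Rps19, Rps25, Rpl10, Rpl28, Rpl27, Rpl18, Rpl19, Rpl7a, Rpl8, Rpl35a and Rplp2. These lists were read from the values and are a description. Rpl12 took 0.796%, 0.937% and 0.953% of the pool in wt and 1.10%, 1.17% and 0.987% in ko, a log2 difference of 0.28 (SE 0.13, edgeR adjusted p = 0.289). Rps9 took 2.63%, 2.26% and 2.31% in wt and 1.99%, 1.82% and 2.14% in ko, at -0.28 (SE 0.13, edgeR adjusted p = 0.291). These were the largest in either direction among core members, followed on the higher side by Rpl36a at 0.22.

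The composition of the pool varied most in wt replicate 1. The median absolute deviation of a core member from its own mean over the 6 libraries, on the log2 scale, was 0.101 in wt replicate 1, 0.031 and 0.028 in wt replicates 2 and 3, 0.052 and 0.054 in ko replicates 1 and 2, and 0.020 in ko replicate 3. In 45 of the 77 core members the library farthest from the mean was wt replicate 1. Deviations in wt replicate 1 correlated across core members with those in ko replicates 1 and 2 at -0.878 and -0.878, and those in ko replicates 1 and 2 with each other at 0.756. The deviations are centered over the same 6 libraries, which pushes these correlations below 0, and members are not independent. Without wt replicate 1, the log2 difference in share was 0.20 for Rpl12 (edgeR adjusted p = 0.467) and -0.21 for Rps9 (edgeR adjusted p = 0.464). In that comparison 15 members were apart on the higher side, against 9.18% of all genes, and 17 on the lower side, against 26.2%.

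Some members kept a nearly fixed share of the pool. Rps12 took 0.749%, 0.748% and 0.744% in wt and 0.750%, 0.751% and 0.749% in ko, an SD of 0.0049 on the log2 scale over the 6 libraries. Its groups were apart although the difference was only 0.0062, which shows how little a separation of groups can amount to. Rpl23a followed, with 1.34 to 1.36% in every library and an SD of 0.013, and Rps6, with 1.75 to 1.83% and an SD of 0.027. These members were singled out after their values were seen.

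**Figure D4:**
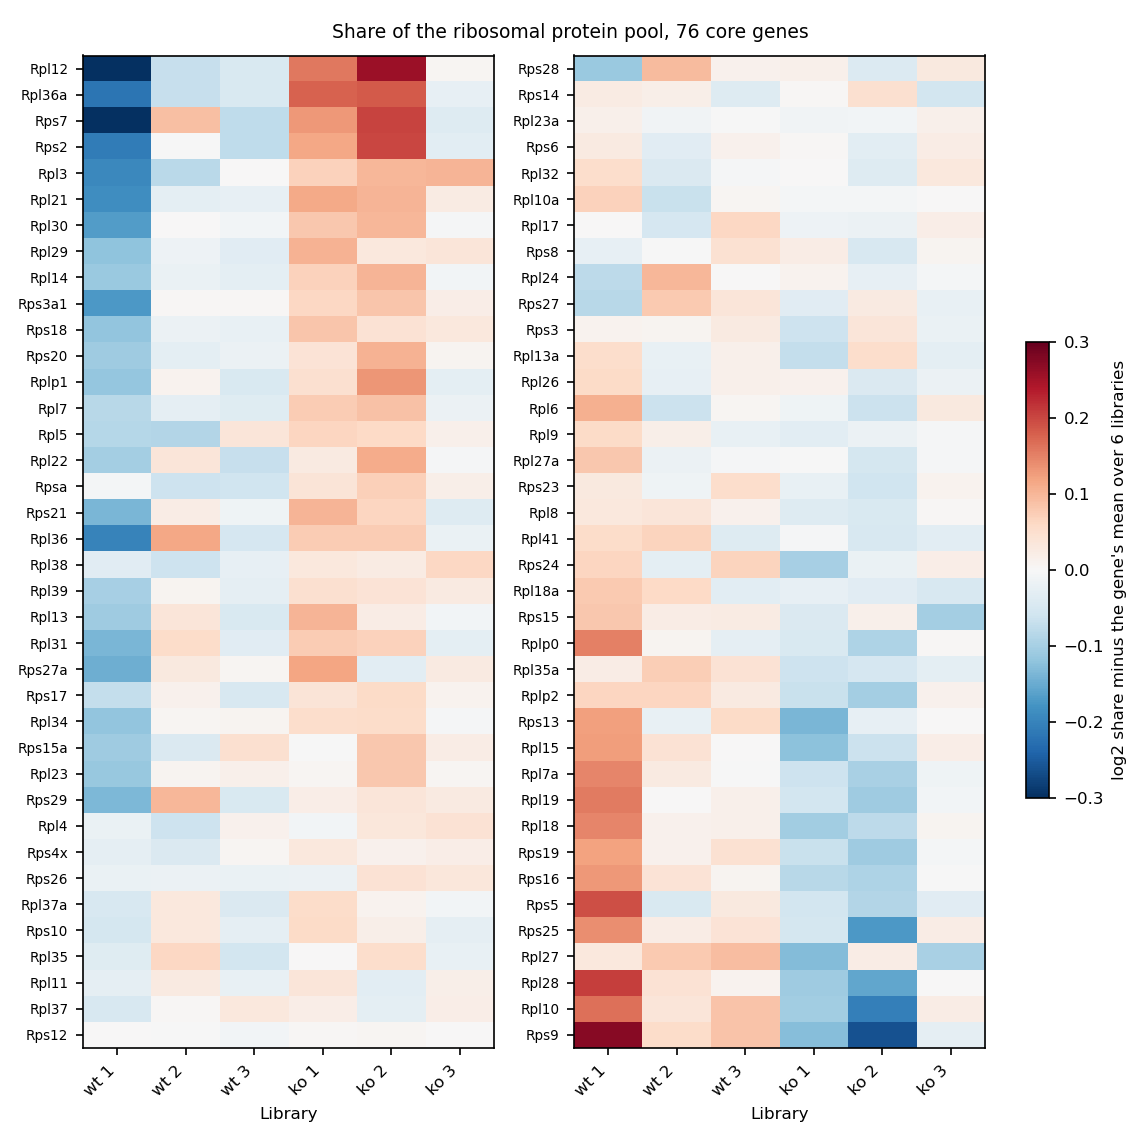
Share of the ribosomal protein pool for 76 core genes in each library, as the log2 share minus the gene's mean over the 6 libraries, ordered by the fitted difference between ko and wt. The strongest colors are in wt replicate 1 (median absolute deviation 0.101), the opposite pattern is seen in ko replicates 1 and 2, and ko replicate 3 is the palest (0.020).

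**Figure D5:**
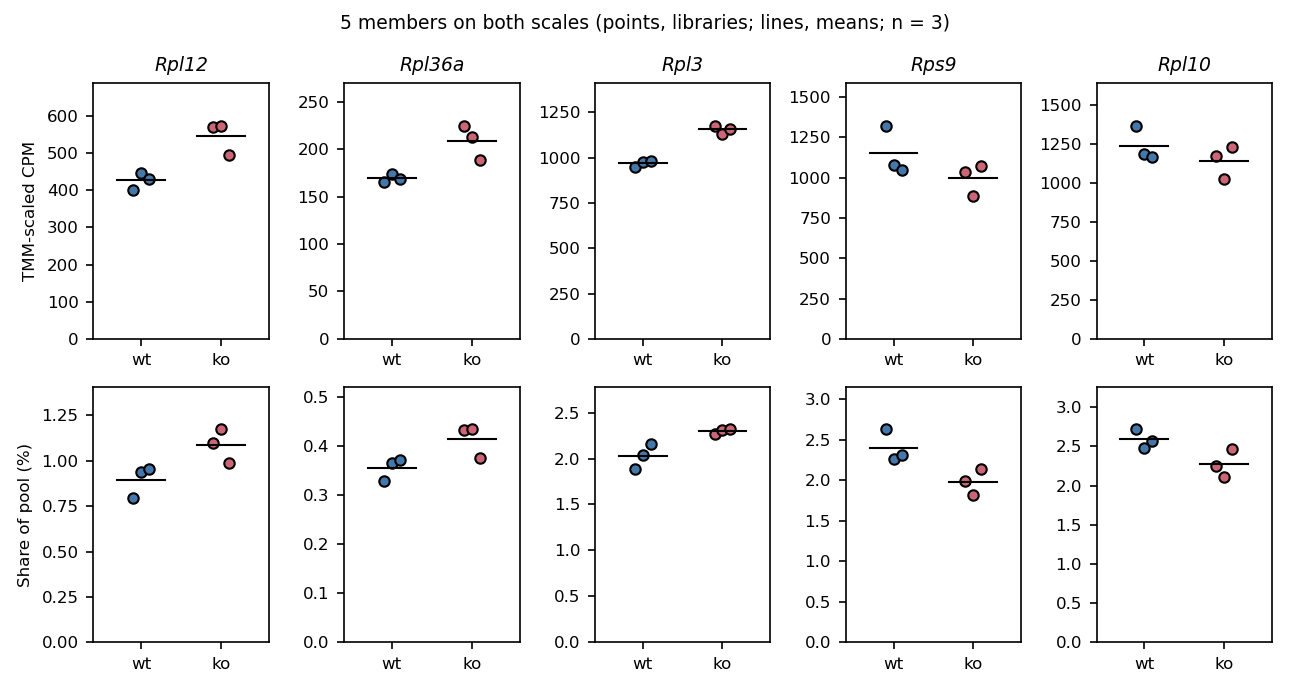
Levels of Rpl12, Rpl36a, Rpl3, Rps9 and Rpl10 in TMM-scaled CPM (top) and as percent of the ribosomal protein pool (bottom), with each library as a point and the mean of 3 as a line. The first 3 are higher in every ko library on both scales, and the last 2 overlap in CPM but are lower in every ko library as a share of the pool.

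The starts of these genes were read to see whether members at either end of the order share the pyrimidine run of TOP mRNAs. RefSeq transcript starts on GRCm38.p6 were found for 63 of the 84 members. A run, here a C followed by at least 5 further C or T on the strand of the gene, beginning between 10 bases before and 20 bases after the start, was found in 38 of the 63 (60.3%), against 28% of 27025 genes with a start in the same table. The windows of 30 bases around the start of 7 members are shown 5' to 3' to set both ends of the order side by side, with the run in capitals.
Rps6 (chr4:86857348-86857377, minus strand): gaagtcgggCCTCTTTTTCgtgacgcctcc
Rps12 (chr10:23787190-23787219, minus strand): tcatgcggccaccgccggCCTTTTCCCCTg
Rpl12 (chr2:32961702-32961731, plus strand): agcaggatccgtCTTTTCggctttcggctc
Rps9 (chr7:3704031-3704060, plus strand): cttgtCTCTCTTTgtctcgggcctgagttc
Rpl28 (chr7:4792955-4792984, plus strand): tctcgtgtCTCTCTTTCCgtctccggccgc
Rpl36a (chrX:134585644-134585673, plus strand): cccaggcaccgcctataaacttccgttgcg
Rpl10 (chrX:74270806-74270835, plus strand): tacagtggaagataggccgcctatataagg

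Both ends of the order thus held members with a run (Rpl12, and Rps9 and Rpl28) and without one at the annotated start (Rpl36a, and Rpl10). In the middle, Rps6 and Rps12 had a run, and Rps3, whose window is not shown, had none. Over the core members with a start, the median log2 fold change was 0.067 in the 34 with a run and 0.076 in the 23 without. A start in RefSeq need not be the base at which transcription begins in these cells, so no match says only that the letters are not in this window. In the 300 bases from 250 before to 50 after the start, on both strands, CCGGAAG, the core of sites for ETS factors, was found in 26 of the 63 members (41.3%) against 9.93% of all genes. AAGATGG, the core of YY1 sites, was found in 10 (15.9%) against 7.28%. CACGTG, the E-box bound by Myc, was found in 6 (9.52%) against 8.09%, and TATAAA in 8 (12.7%) against 15.7%. The median log2 fold change of the core members was 0.099 in the 24 with CCGGAAG and 0.043 in the 33 without, and 0.054 in the 9 with AAGATGG and 0.073 in the 48 without. It was 0.088 in the 6 with CACGTG and 0.070 in the 51 without, and 0.158 in the 6 with TATAAA and 0.060 in the 51 without.

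The genes lie on 19 chromosomes in the GENCODE annotation of GRCm38. Rpl12 spans chr2:32961559-32965345 on the plus strand and overlaps the coding gene Lrsam1, and Rps9 spans chr7:3703993-3706897 on the plus strand with no overlapping coding gene. Of the 84 members, 30 contain small nucleolar RNA genes, 58 in all, and 23 overlap a gene on the opposite strand, whose reads cannot be told apart where counting did not use strand. The 30 core hosts had a median log2 difference within the pool of 0.0016. Across 77 core members, Spearman's rho of the difference within the pool was -0.118 with transcript GC content and 0.058 with gene length, as a description. Members are short, with a median length of 849.5 bases against 3549 over all genes tested. The annotation holds 295 pseudogenes with a ribosomal protein symbol, and depending on how reads with several matches were counted, which is not given in the sources used here, the split of counts between these and the members is uncertain. The 10 pseudogene rows in the table summed to only 20.1 to 26.4 CPM in a library.

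Genes close to the ribosome that the symbol rule does not take were set beside the members. Fau, made as a fusion with a ubiquitin-like protein, had a log2 fold change of -0.20, and Rack1, the scaffold on the 40S head, -0.01, while Rpl36al, a paralog of Rpl36a, had 0.06 and Rps27rt -0.14. None of these passed the test. The 78 mitochondrial ribosomal proteins, which build a separate ribosome, had a median of -0.0020, with 39 above and 39 below 0, and of 0.081 without wt replicate 1, with 52 above. The 13 rows encoded by the mitochondrial genome had a median of 0.070, and of -0.024 without wt replicate 1.

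Other TOP mRNAs were mixed. Of 16, 11 were above 0, the median was 0.12 and 0 passed the adjusted threshold. In edgeR 5 had an unadjusted p under 0.05, all higher in ko, against 6.9% of all genes. Without wt replicate 1 the median was 0.11 and 4 were higher at that threshold, against 974 of 14311 genes. Eef1a1, the elongation factor that brings tRNA to the ribosome, had 0.029, Eef2, which moves it along, had -0.12, and Tpt1 had -0.16. Hnrnpa1, an RNA-binding protein, stood at 251, 288 and 320.4 CPM in wt and at 428, 443 and 408 CPM in ko, with a log2 fold change of 0.57 (SE 0.13, edgeR adjusted p = 0.328).

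Genes for making ribosomes were set beside the members, with no test of the difference from them. Of 22 nucleolar assembly factors, 18 were above 0 with a median of 0.35, and 7 had an unadjusted p under 0.05, all higher in ko, against the 6.9% of all genes given above, with 0 passing the adjusted threshold. Ncl, which encodes nucleolin, stood at 174, 414 and 461 CPM in wt and at 677, 787 and 580.4 CPM in ko, a log2 fold change of 0.96 (SE 0.34, adjusted p = 0.328). Nop56, a core protein of the particles that methylate ribosomal RNA, stood at 64.7, 79.8 and 72.1 CPM in wt and at 131, 160.0 and 99.4 CPM in ko, at 0.85 (SE 0.19, adjusted p = 0.328). Every ko library was above every wt library in both. The summed level of the 22 was 1112 CPM in wt replicate 1, against 1674 and 1637 CPM in the other wt and 1821 to 2418 CPM in the ko libraries. Without wt replicate 1 the median was 0.26, against 0.031 for the median of all genes. In that edgeR fit 7 had an unadjusted p under 0.05, all higher in ko, against 974 of 14311 genes. The log2 fold changes were then 0.64 for Ncl and 0.77 for Nop56. A list of 10 chaperones of ribosomal proteins and related assembly factors had a median of 0.36, with 7 above and 3 below 0. At an unadjusted p under 0.05 in edgeR, 3 were higher in ko, against the same 6.9% of all genes. These 3 were Nap1l1, which is also a TOP mRNA, at 0.50, Pno1 at 0.33 and Tsr2, the chaperone of Rps26, at 0.75. Those below 0 were Pdcd2l at -0.38, Aamp at -0.05 and Bccip at -0.02. Without wt replicate 1 the median was 0.25 and 1 was higher at an unadjusted p under 0.05, against the same 974 of 14311 genes. Of 14 rows of RNA polymerase I and its factors 9 were above 0, with a median of 0.16. At an unadjusted p under 0.05, 3 were higher in ko, against the same 6.9% of all genes. Without wt replicate 1 this was 1, against 974 of 14311 genes.

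Regulators of ribosomal protein synthesis were divided. Of 12, 4 were above and 8 below 0, with a median of -0.08. In edgeR 1 was lower in ko at an unadjusted p under 0.05, against 8.31% of all genes. Myc, which drives transcription of ribosome genes, stood at 60.5, 261 and 178 CPM in wt and at 401, 387 and 241 CPM in ko, a log2 fold change of 1.05 (SE 0.47, adjusted p = 0.331), with wt replicate 1 the lowest library, as for Npm1, and a value of 0.64 without it. Eif4ebp2, which holds back cap-dependent translation when mTOR is inactive, stood at 57.8, 51.6 and 49.5 CPM in wt and at 39.7, 37.4 and 40.8 CPM in ko, at -0.43 (SE 0.12, adjusted p = 0.328). Mtor had -0.13 and Larp1, which binds the TOP element, -0.05. Whether any of these levels had a part in those of the members was not tested.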

How the data were processed

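RNA of 6 libraries, 3 labelled wt and 3 labelled ko, was analysed. The authors deposited raw read counts per gene as whole numbers. They also deposited FPKM values, made from these counts with 1 length per gene and the plain library total. The submitters' processing notes name the build mm10, and the aligner, the counting tool and its use of strand are not given in the sources used here. The paper's heatmap caption speaks of individual mice, but of fewer per group than the 3 libraries deposited. For the other libraries only the label of separate biosamples says that they came from separate animals. The p-values therefore measure the spread between these libraries. The paper itself names too few biological replicates in its RNA sequencing as a limitation.

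Counts were compared in R 4.3.3 with edgeR 4.0.16 (filterByExpr, TMM, glmQLFit, glmQLFTest) with Benjamini-Hochberg adjustment over the 13884 genes tested and a threshold of 0.05. DESeq2 1.42.0 and limma 3.58.1 (log2 of FPKM plus 1 or 0.1, so that fold changes of low genes are understated) served as alternatives. SEs were taken from the log2 fold change and its F statistic. Tested on simulated counts with 200 changed genes among 13632, edgeR recovered 70% of those changed 4-fold and 28% of those changed 2-fold. It called 3 other genes. Over such genes, smaller differences are mostly not detectable with 3 against 3 libraries. The changed genes were drawn from genes of every level and spread, so these rates are not those of the core members. Core members had SEs from 0.11 (Rpl27) to 0.15 (Rps9), and their own recovery was not simulated. The members and gene lists were chosen with earlier results of these data known. Named members were a fixed list by role, the 6 with the smallest p in each direction, the 3 with the highest and the 3 with the lowest FPKM, and the 3 with the smallest p in each direction within the pool. The single values of 1 member and 1 related gene are not reported here, and the figures leave that member out. Other members with values (such as Rps12, Rpl23a, Rps15a and Rpl6l) and genes of the lists were named after their values were seen. Promoter sequences are those of RefSeq on GRCm38.p6, and gene coordinates those of GENCODE on GRCm38, matched by symbol or gene number for 84 of 84 members. Comparisons by plain totals, and those of the pool, Npm1 and the gene lists without wt replicate 1, were added after the data were examined.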

Additional observations from a re-analysis of the deposited data

How the results depend on the processing

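No member passed an adjusted p of 0.05 under any of the alternatives run, with the lowest adjusted p of a member at 0.145 in DESeq2 without wt replicate 1 and ko replicate 3. Same-numbered libraries deviated from their group means with correlations of -0.241, 0.060 and -0.337 over all genes. Over the members these were -0.264, 0.336 and -0.184. With 3 libraries per group, such values cannot tell whether same-numbered libraries share a day or batch. With the number as a replicate block, edgeR called 0 genes, and the median log2 fold change of the members was 0.075.

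That median was 0.078 in the main comparison and 0.055 to 0.11 with RLE or upper quartile factors, TMM without the members, other filters and DESeq2. It was 0.0024 when scaled to the summed member counts, 0.229 on plain totals, 0.221 in limma on FPKM plus 1 and 0.223 in limma on FPKM plus 0.1. The scalings differ by construction, and limma was run on FPKM, which is scaled to plain totals. Leaving out 1 library gave 0.027 (without wt replicate 3) to 0.114 (without wt replicate 1). The distance from the median of all genes, 0.056 in the main comparison, was 0.0024 in DESeq2 and 0.0029 with no filter, where more low genes are in the median, and 0.129 in limma on FPKM plus 1. Of the members, 29 were apart with ko higher (34.5%, against 13.3% of all genes). They were 15 when scaled to the member sum (against 7.61%), 50 on plain totals and on FPKM (18.6%), and 48 in edgeR without wt replicate 1 and ko replicate 3 (57.1%, against 31.6%). Other scalings, filters and DESeq2 gave 21 to 38, with 21 in DESeq2 (25%, against 9.21%), 22 with RLE (26.2%, against 12.4%) and 38 with the 10-count minimum per library (45.2%, against 13.4%). Leaving out 1 library gave 23 (27.4%, against 21.9%, without wt replicate 3) to 42 (50%, against 16.6%, without wt replicate 1). Members apart with ko lower were 0 (against 12.6%), 15 when scaled to the member sum (against 20.9%), 2 in edgeR (26.1%) and 3 in DESeq2 (22.2%) on those 4 libraries, and 0 to 3 when leaving out 1 library, where all genes were at 14.5 to 22.8%. The difference in the share of counts was 0.769 percentage points, 2.00 in FPKM, 0.250 in TMM-scaled libraries, and 0.619 to 0.995 when leaving out 1 library.

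Directions that reversed were all of values whose adjusted p was above 0.05. On plain totals, in limma on FPKM plus 1 and in limma on FPKM plus 0.1, the log2 fold changes were 0.0303, 0.0327 and 0.0327 for Rpl10, 0.0941, 0.0876 and 0.0879 for Rpl27, 0.0449, 0.0497 and 0.0498 for Rpl28, 0.0835, 0.0637 and 0.133 for Rpl32l, 0.103, 0.104 and 0.105 for Rps19, 0.120, 0.120 and 0.120 for Rplp2, and 0.131, 0.134 and 0.134 for Rplp0. Upper quartile factors gave 0.0171 for Rplp0 and 0.0060 for Rplp2. Rplp0 was at 0.0101 with at least 10 counts in every library, 0.0508 in edgeR and 0.0133 in DESeq2 without wt replicate 1 and ko replicate 3. Scaled to the member sum, Rpl13a was at -0.0311, Rps3 at -0.0301 and Rps6 at -0.0037. Leaving out 1 library gave -0.0130 to 0.0954 for Rpl13a, -0.395 to 0.183 for Rpl32l, -0.281 to 0.630 for Rpl39l, -0.0032 to 0.175 for Rpl7l1, -0.107 to 0.0732 for Rplp0, -0.0940 to 0.0116 for Rplp2, -0.107 to 0.0214 for Rps19 and -0.0042 to 0.0749 for Rps3. The cause was not tested.

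Rpl3l, Rpl32l and Rpl39l had 10 to 81 counts in a library, so counting error weighs more on them than on the other members, and no alternative varied the depth.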

Other observations

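The library in which a core member was highest or lowest in TMM-scaled CPM was not evenly spread. Of the 77 core members, 45 were highest in ko replicate 1 and 30 in wt replicate 1, whereas wt replicates 2 and 3 were highest in 0. The lowest level was in wt replicate 3 in 51 members, in ko replicate 2 in 10 and in wt replicate 1 in 9. The SD of log2 CPM had a median over core members of 0.0843 within wt and 0.0652 within ko (3 libraries each).

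Length classes of the other genes tested also differed in their median log2 fold change, ko minus wt. It was -0.06 for 121 genes of up to 500 bases, -0.06 for 679 genes above 500 and up to 1000 bases, and 0.078 for 6067 genes over 4000 bases. Among the genes over 32 CPM in each class, these medians were -0.08, -0.16 and -0.09, so that the long class was then below 0 too. The members, with a median length of 849.5 bases, had a median of 0.078, above that of the class that holds this length. These values are a description, and their part in the result was not tested.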
